A study of Mus musculus with 6 samples.

Results

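The 55 genes described here are the mouse genes of the major histocompatibility complex (MHC) and of the machinery that loads it with peptides. They were chosen by name from the 56262 genes in the count table, as every gene whose symbol in GENCODE release M21 starts with H2-, together with B2m, Tap1, Tap2, Tapbp, Psmb8, Psmb9, Psmb10, Nlrc5, Ciita and Cd74. The rule uses symbols and no measured value. Of the 55 genes, 47 had a count in at least 1 sample, 37 passed the filter on low counts and were tested, and 18 were not tested. On the mm10 assembly, 50 of them lie within 3.57 Mb of chromosome 17, from 33915899 to 37483552. The others are B2m on chromosome 2, Ciita on chromosome 16, Cd74 on chromosome 18, and Nlrc5 and Psmb10 on chromosome 8.

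The study sequenced bulk RNA from the leg muscle of mouse fetuses at embryonic day 18.5, in 3 wild type (WT) and 3 SYISL knockout (KO) samples. SYISL, a noncoding transcript, lies over an intron of the gene Synpo2, and KO fetuses carry its deletion in every cell. Mice were mated within a genotype, so WT fetuses had WT mothers and KO fetuses had KO mothers. Per the paper, WT mice came from an animal center and the KO line from the authors' earlier work. The effects of the fetal genotype, the mother, the litter and the source colony cannot be told apart. The H2 haplotype of either group is not given, so a difference in it cannot be told apart from genotype either. The mouse strain and whether 1 sample is 1 fetus or a pool are not given in the sources used here, so the p-values measure the spread between these samples. The annotation used lists no gene called SYISL, so the deletion was not checked, and the host gene Synpo2 had 10812 to 14672 counts per WT sample and 18054 to 22270 per KO sample. Each sample held 82054811 to 102233181 counts. Levels are given in CPM, the counts divided by the library total scaled by TMM and expressed per 1e6. A count of 0 allows up to 3 counts, here 0.0284 to 0.0363 CPM depending on the sample, for counting error only. Within a genotype, the chi-square between replicates averaged 4.85 to 32.9 per gene, above the value of 1 that counting noise alone would give.

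Class I molecules consist of a heavy chain and the light chain beta-2 microglobulin, and they show peptides cut from proteins made inside the cell to CD8 T cells. The proteasome cuts these peptides, the TAP transporter carries them into the endoplasmic reticulum, and tapasin helps to load them. Class II molecules show peptides from engulfed proteins to CD4 T cells and are made mainly by macrophages, dendritic cells and B cells, while mature muscle fibers are known for little MHC of either class. Interferon gamma is the best known inducer of both classes. In bulk muscle, more cells that carry these molecules and more RNA per cell cannot be told apart.

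Some class I promoters share letters of known regulatory elements, which are shown here for H2-K1, H2-D1 and H2-Q7, beside other genes that hold part of them. Promoter windows of RefSeq on GRCm38.p6, from 250 bases before to 50 after a gene's start, were found for 38 of the 55 genes. The letters GGGATTCC, a kappaB element of the class I enhancer, lay in the windows of 4 of these genes (H2-K1, H2-D1, H2-Q6 and H2-Q7) and in 1.06% of all 32851 windows searched on both strands. The X2 letters TGACG, followed 24 to 26 bases later by the reversed CCAAT letters ATTGG, lay in the windows of 6 genes (H2-K1, H2-D1, H2-Q7, H2-M3, B2m and H2-Aa) and in 0.201% of all windows. This pair belongs to the module through which the class I activator Nlrc5 and the class II activator Ciita are known to act. One form of the core of an interferon-stimulated response element is GAAA and a further GAAA with any 2 bases between them. It lay in the windows of 3 genes (B2m, H2-T22 and H2-T23) and in 3.44% of all windows. Only this exact form was searched for, so a window without it may hold another form of the element. The letters agtttcacttct, in lower case in the H2-K1, H2-D1 and H2-Q7 stretches, were not searched for. CCAAT alone lay in 33 of the 38 genes' windows and in 37.4% of all windows, and TGACG alone in 15 and in 20.8%. Each stretch is written on the strand of its gene, and capitals mark the kappaB letters, the response element core, and the X2 and reversed CCAAT letters of a pair, while any other match is left in lower case. The H2-K1 stretch is chr17:34000355-34000467 (minus strand), that of H2-D1 chr17:35262914-35263026 (plus), that of H2-Q7 chr17:35439013-35439123 (plus) and that of H2-M3 chr17:37270178-37270221 (plus). The B2m stretch is chr2:122147538-122147642 (plus) and that of H2-Aa chr17:34287863-34287907 (minus).
H2-K1: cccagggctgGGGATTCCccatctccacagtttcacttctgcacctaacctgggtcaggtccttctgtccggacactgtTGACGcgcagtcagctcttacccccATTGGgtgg
H2-D1: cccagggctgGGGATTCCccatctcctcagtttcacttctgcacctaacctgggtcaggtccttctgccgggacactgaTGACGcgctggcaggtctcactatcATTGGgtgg
H2-Q7: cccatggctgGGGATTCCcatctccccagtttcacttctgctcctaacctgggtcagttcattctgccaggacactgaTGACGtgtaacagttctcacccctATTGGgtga
H2-M3: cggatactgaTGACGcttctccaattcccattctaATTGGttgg
B2m: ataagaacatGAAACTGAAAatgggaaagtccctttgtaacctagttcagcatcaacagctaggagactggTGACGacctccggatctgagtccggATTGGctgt
H2-Aa: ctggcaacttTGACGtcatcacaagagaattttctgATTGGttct

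The H2-K1 and H2-D1 stretches were identical at 102 of 113 bases (90.3%). H2-M3 carried the X2 and ATTGG letters without the kappaB letters, and H2-Aa, a class II gene, likewise. A match of letters is a description of the sequence and shows no binding.

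Many class I genes and the genes of their peptide supply had higher expression in KO leg muscle. Of the 37 genes tested, 13 (35.1%) were called higher in KO, which means a difference of over 1.5-fold with an adjusted p below 0.05 in edgeR's quasi-likelihood test, where 8.31% of all 22071 genes tested were called higher. The 13 were H2-K1, H2-D1, H2-Q4, H2-Q6, H2-T24, H2-M3, Tap1, Tap2, Psmb8, Psmb9, Nlrc5 and the pseudogenes H2-K2 and H2-Q5. Lower calls were made for 2 pseudogenes, H2-T-ps and H2-Pb (5.41%, against 8.39% of all genes). With the adjusted p alone, 22 genes (59.5%) rose and 2 (5.41%) fell, against 21.9% and 23.1% of all genes. The 3 KO values lay above the 3 WT values without overlap for 27 genes (73.0%) and below them for 2, where 27.3% and 28.5% of all genes did so. The median log2 fold change of KO over WT was 0.47 over the 37 genes tested and -0.0041 over all genes tested. Together the 55 genes took 0.0408% to 0.0428% of all counts in WT samples and 0.0571% to 0.0625% in KO samples, and they summed to 409 ± 5.41 CPM for WT and 606 ± 15.6 CPM for KO (SD, n = 3 each, as for all values after ±).

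**Figure D1:**
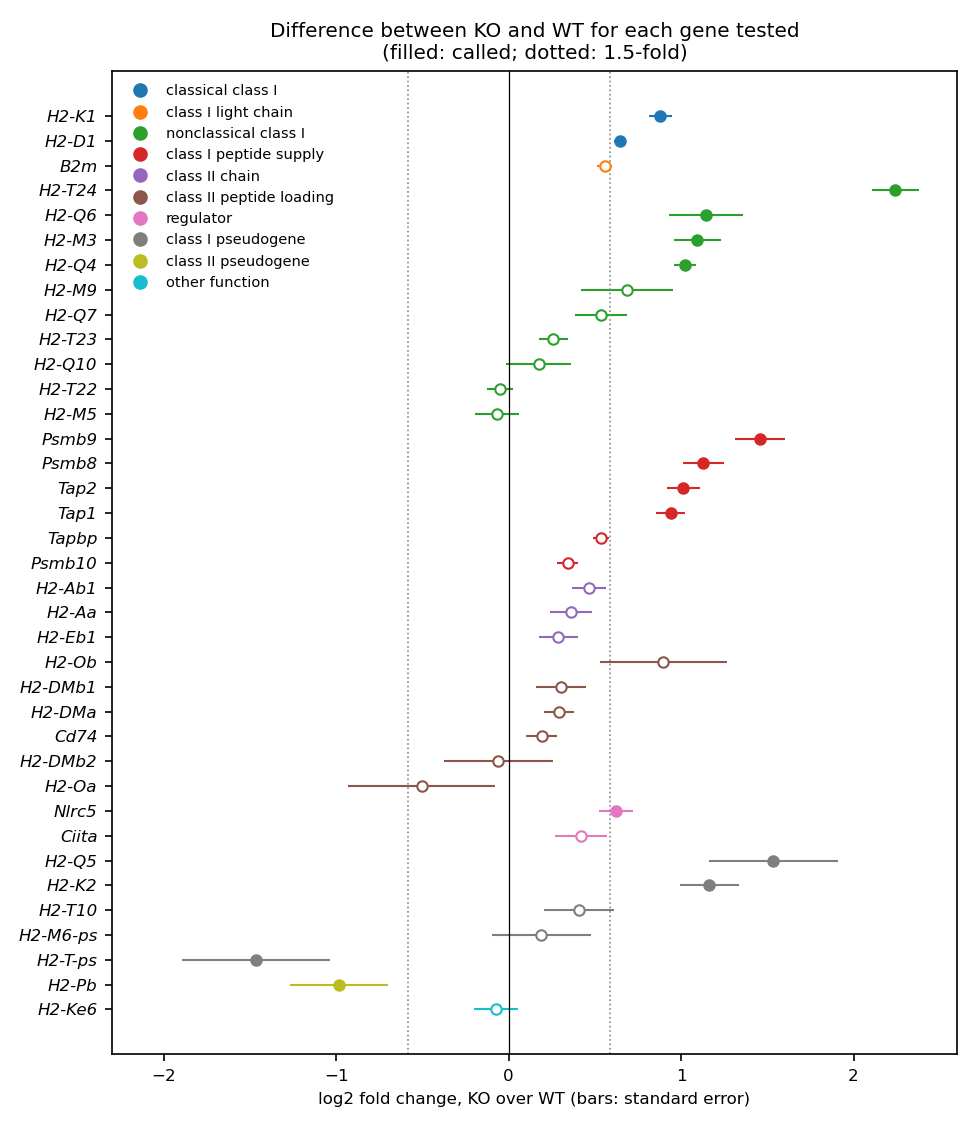
Log2 fold change of KO over WT for each of the 37 genes tested, with bars for the standard error, grouped and colored by role; filled points were called and dotted lines mark a 1.5-fold difference. All 6 peptide supply genes lie to the right of 0, from 0.34 for Psmb10 to 1.46 for Psmb9. Of the 9 class II chain and peptide loading genes 0 have a filled point, where 8.31% of all genes tested were called higher and 8.39% lower.

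The classical class I heavy chains H2-K1 and H2-D1, which present peptides to CD8 T cells, both rose. H2-K1 (ENSMUSG00000061232.16, chr17:33996017-34000347, minus strand) was measured at 23.5, 20.1 and 21.5 CPM in WT samples 1 to 3 and at 42.5, 39.9 and 37.5 CPM in KO samples 1 to 3. Every KO value lay well above the highest WT value, with a log2 fold change of 0.88 (SE 0.067, adjusted p = 6.15e-06). H2-D1 (ENSMUSG00000073411.12, chr17:35262730-35267499, plus strand) was measured at 44.8, 45.6 and 44.3 CPM in WT and at 72.3, 70.1 and 68.3 CPM in KO. The WT values differed little from each other and the groups did not overlap, with a log2 fold change of 0.65 (SE 0.037, adjusted p = 1.07e-06). H2-D1 lay just past the 1.5-fold threshold of 0.58 on the log2 scale, and with library sizes in place of TMM its log2 fold change was 0.578, short of it. Of all stretches of 100 bases in their exons, 0.957% of those of H2-K1 and 3.59% of those of H2-D1 also occurred in another gene. Summed, the heavy chains of this pair stood at 66.6 ± 1.44 CPM for WT and 110 ± 4.50 CPM for KO.

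B2m encodes the light chain that pairs with class I heavy chains. It was measured at 243, 228 and 234 CPM in WT and at 352, 345 and 340.5 CPM in KO. The groups did not overlap and B2m rose by a log2 fold change of 0.56 (SE 0.043, adjusted p = 7.16e-06), just under the fold threshold, so that it was not among the called genes. With upper-quartile factors in place of TMM the value was 0.63, past the threshold. Per kb of exon, B2m had the highest level of the 55 genes, at 273 CPM per kb in WT and 402 in KO. H2-D1 followed at 17.4 and 27.2 CPM per kb, H2-K1 at 7.40 and 13.6, Tapbp at 6.16 and 8.94 and H2-T22 at 5.93 and 5.72.

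**Figure D2:**
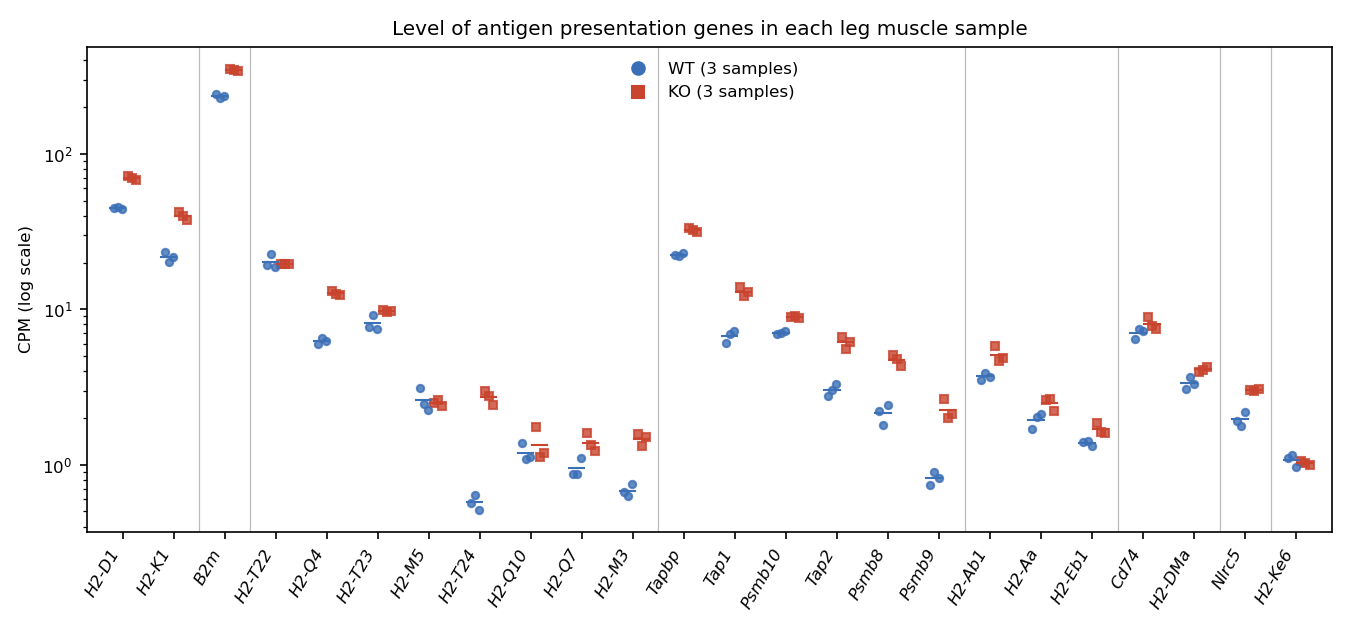
Level in CPM on a log scale of the 24 genes tested with a mean of at least 1 CPM, with blue circles for the 3 WT samples, red squares for the 3 KO samples, lines for the means and grey lines between role groups. The KO squares of B2m (340.5 to 352 CPM) lie above its WT circles (228 to 243 CPM), while the points of H2-T22 overlap.

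Genes of the nonclassical class I family differed among themselves. This family is related to the classical heavy chains and holds molecules with narrower roles. Of its 22 genes, 10 were tested. Of these, 4 were called higher and 0 lower, against 8.31% and 8.39% of all genes tested. The adjusted p was passed upward by 6 and downward by 0 of the 10, against 21.9% and 23.1% of all genes. H2-T24 (ENSMUSG00000053835.17, chr17:36005695-36020560, minus strand) showed the largest log2 fold change of the 37 genes tested. It had 54, 53 and 54 counts in WT samples and 279, 262 and 234 counts in KO samples. These are 0.574 ± 0.065 and 2.71 ± 0.288 CPM, a log2 fold change of 2.24 (SE 0.14, adjusted p = 1.51e-06). No stretch of 100 bases in its exons occurred in another gene. H2-Q4 (ENSMUSG00000035929.11, chr17:35379617-35385290, plus strand) was measured at 5.94, 6.55 and 6.28 CPM in WT and at 13.1, 12.6 and 12.3 CPM in KO. Its KO values were close to each other and all above WT, with a log2 fold change of 1.02 (SE 0.064, adjusted p = 1.88e-06), and 19.1% of its exon bases overlap a gene on the other strand, Gm11131.

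H2-M3, which presents peptides that start with N-formylmethionine, had 63, 52 and 79 counts across WT and 147, 125 and 146 in KO. The lowest KO sample exceeded the highest WT sample and the log2 fold change was 1.09 (SE 0.14, adjusted p = 0.000156). H2-Q6 had only 17, 15 and 23 counts across WT and 43, 45 and 35 in KO, a log2 fold change of 1.14 (SE 0.21, adjusted p = 0.00199). Of its exon stretches, 10.8% also occurred in another gene, the most in H2-Q7, so reads of the H2-Q genes may be shared. H2-Q7, one of the genes for the Qa-2 antigen, had 83, 72 and 116 counts across WT and 149, 127 and 119 in KO. It rose without reaching the fold threshold (log2 fold change 0.54, SE 0.15, adjusted p = 0.0175), and the adjusted p was 0.0527 without WT sample 1 and 0.0529 without KO sample 1, while without WT sample 3 or KO sample 3 the log2 fold change was 0.66 or 0.62, past the fold threshold.

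The remaining nonclassical genes tested differed by less or did not pass. H2-T23, which encodes Qa-1, a ligand of inhibitory receptors on natural killer cells, was measured at 7.69, 9.21 and 7.52 CPM in WT and at 9.83, 9.57 and 9.80 CPM in KO. It rose by a log2 fold change of 0.26 (SE 0.083, adjusted p = 0.0298), and leaving out WT sample 1, WT sample 3, KO sample 2 or KO sample 3 gave adjusted p-values of 0.0976, 0.125, 0.0599 and 0.0743. H2-T22, a ligand of certain gamma delta T cells, was measured at 19.2, 22.8 and 18.8 CPM in WT and at 19.6, 19.4 and 19.5 CPM in KO. The WT values lay on both sides of the KO values, and the log2 fold change of -0.05 (SE 0.075, adjusted p = 0.607) did not pass the test. H2-M5 at -0.07, H2-Q10 at 0.17 and H2-M9 at 0.69 did not pass it either, with adjusted p-values of 0.708, 0.492 and 0.0628. H2-M9 rested on 9 to 23 counts per sample, and without WT sample 1 its log2 fold change was 0.93 with an adjusted p of 0.0341. Over all 24 heavy chain genes, classical and nonclassical, expression summed to 108 ± 2.86 CPM for WT and 162 ± 5.87 CPM for KO, a ratio of 1.51.

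The 6 genes that make and carry class I peptides all rose, and 4 of them were called. Among all genes tested, 21.9% rose and 8.31% were called higher. Psmb9, an immunoproteasome subunit that replaces Psmb6, had 70, 74 and 87 counts across WT and 248, 189 and 207 in KO. Its KO counts were all above 2 times its highest WT count, with a log2 fold change of 1.46 (SE 0.15, adjusted p = 3.72e-05). Psmb8, which replaces Psmb5, had 211, 148 and 257 counts across WT and 476, 454 and 422 in KO, a log2 fold change of 1.13 (SE 0.12, adjusted p = 5.47e-05). Psmb10, which replaces Psmb7, was measured at 6.94, 7.04 and 7.21 CPM in WT and at 8.98, 9.06 and 8.82 CPM in KO. It rose by less, a log2 fold change of 0.34 (SE 0.059, adjusted p = 0.00119). Tap1 and Tap2 encode the paired chains of the peptide transporter. Tap1 was measured at 6.07, 6.93 and 7.29 CPM in WT and at 13.8, 12.2 and 12.9 CPM in KO, giving a log2 fold change of 0.94 (SE 0.083, adjusted p = 1.66e-05). Tap2 was measured at 2.76, 3.04 and 3.29 CPM in WT and at 6.59, 5.58 and 6.18 CPM in KO, giving a log2 fold change of 1.01 (SE 0.095, adjusted p = 2.49e-05). For both genes the lowest KO value stood clear of the highest WT value. Tapbp, which encodes tapasin, was measured at 22.3, 21.9 and 22.9 CPM in WT and at 33.3, 32.3 and 31.6 CPM in KO. It rose by a log2 fold change of 0.54 (SE 0.045, adjusted p = 1.12e-05), under the fold threshold, and reached 0.60 with upper-quartile factors. The 6 genes summed to 42.2 ± 1.55 CPM for WT and 67.4 ± 2.63 CPM for KO.

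Psmb9 (ENSMUSG00000096727.3, chr17:34181987-34187764, minus strand) and Tap1 (ENSMUSG00000037321.17, chr17:34187553-34197225, plus strand) are transcribed away from each other from a shared promoter region. In RefSeq their starts are separated by 225 bases, chr17:34187331-34187555 on GRCm38.p6, which are shown because both genes were called higher. The stretch is written on the strand of Tap1, with capitals at CCAAT and TGACG.
Tap1: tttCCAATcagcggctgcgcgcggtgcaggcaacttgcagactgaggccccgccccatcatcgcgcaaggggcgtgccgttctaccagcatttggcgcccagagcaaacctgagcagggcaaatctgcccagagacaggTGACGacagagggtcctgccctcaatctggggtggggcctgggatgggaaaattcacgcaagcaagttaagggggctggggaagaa

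Psmb8 (ENSMUSG00000024338.15, chr17:34197721-34201454, plus strand) and Tap2 (ENSMUSG00000024339.12, chr17:34203527-34216321, plus strand) follow Tap1 on the chromosome. In the annotation, 5.79% of the exon bases of Psmb9 overlap Tap1, and 14.7% of those of Psmb8, 18.5% of those of Tap2 and 29.4% of those of H2-T22 overlap genes on the other strand. Likewise 29.0% of the exon bases of Tapbp overlap other genes, Gm19412 and Zbtb22. Since the strand setting of the counting is not stated, reads of such pairs cannot be told apart.

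The immunoproteasome subunits were also set against the constitutive subunits that they replace. Of the 7 constitutive beta subunit genes, 0 were called by edgeR's quasi-likelihood test, where 8.31% of all genes tested were called higher and 8.39% lower. Of the 7, 1, Psmb1, passed the adjusted p, downward (log2 fold change -0.14, adjusted p = 0.021), where 23.1% of all genes did so. Psmb5, Psmb6 and Psmb7 had log2 fold changes of 0.05, -0.02 and 0.12. Per kb of exon, the level of Psmb8 was 1.47%, 1.03% and 1.498% of that of Psmb5 in WT and 3.19%, 2.63% and 2.64% in KO. Psmb9 was 0.383%, 0.452% and 0.441% of Psmb6 in WT and 1.46%, 0.991% and 1.13% in KO. Psmb10 was 17.9%, 17.5% and 18.6% of Psmb7 in WT and 22.5%, 20.0% and 20.9% in KO. In all 3 pairs every KO share lay above every WT share, and in both genotypes the shares of Psmb8 and Psmb9 were small.

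**Figure D3:**
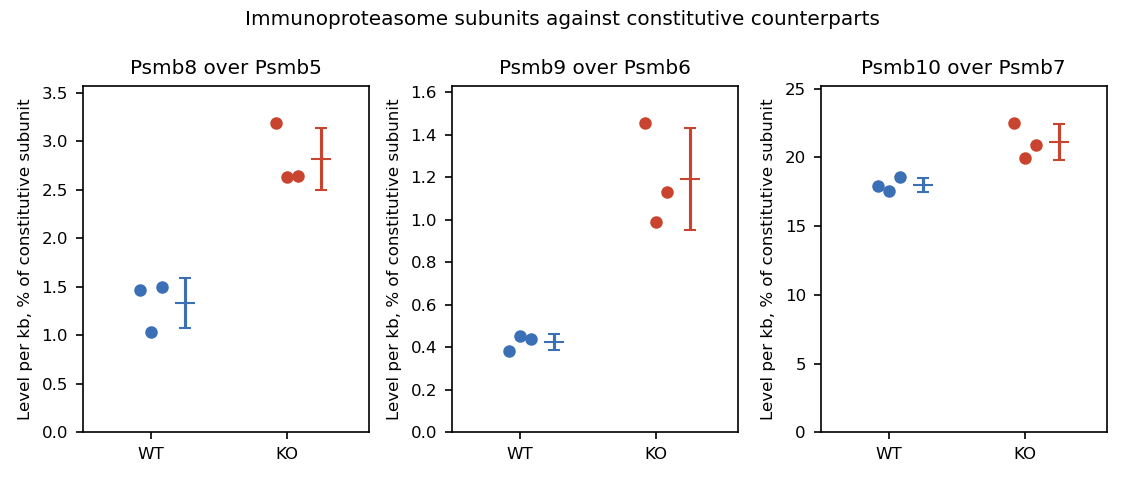
Level per kb of Psmb8, Psmb9 and Psmb10 as a percent of Psmb5, Psmb6 and Psmb7, with a point for each sample and the mean with its SD beside the points. Mean shares in WT were 1.33%, 0.425% and 18.0%, those in KO 2.82%, 1.19% and 21.1%, and each panel has its own axis that starts at 0.

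Nlrc5 and Ciita are the main activators of class I and class II transcription. Nlrc5 (ENSMUSG00000074151.13, chr8:94434356-94527272, plus strand) had 182, 147 and 230 counts across WT and 284, 283 and 299 in KO. Its KO samples were close to each other and all above WT, with a log2 fold change of 0.62 (SE 0.099, adjusted p = 0.000782). This call lay just inside the fold threshold, and the log2 fold change was 0.557 without WT sample 2 and 0.552 with library sizes in place of TMM. Ciita had 60, 59 and 76 counts across WT and 95, 76 and 93 in KO. It rose by a log2 fold change of 0.42 (SE 0.15, adjusted p = 0.0464), and the adjusted p was 0.075 to 0.117 without WT sample 1, 2 or 3 or KO sample 1 or 3 and 0.15 with DESeq2.

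No class II chain or peptide loading gene was called, where 8.31% of all genes tested were called higher and 8.39% lower. Of the 4 chain genes and 6 peptide loading genes, 9 were tested. Of these, 3 (H2-Ab1, H2-Aa and H2-DMa) passed the adjusted p, all upward, where 21.9% of all genes did so. H2-Ab1 and H2-Aa encode the beta and alpha chains of the I-A molecule. H2-Ab1 was measured at 3.53, 3.91 and 3.65 CPM in WT and at 5.81, 4.62 and 4.88 CPM in KO, giving a log2 fold change of 0.47 (SE 0.10, adjusted p = 0.00421). H2-Aa was measured at 1.70, 2.02 and 2.12 CPM in WT and at 2.62, 2.67 and 2.22 CPM in KO, giving a log2 fold change of 0.36 (SE 0.12, adjusted p = 0.0346). The H2-Aa groups came close without overlap, and the adjusted p was 0.105 without WT sample 1, 0.0792 without KO sample 1, 0.112 without KO sample 2, 0.0509 with DESeq2 and 0.0782 with library sizes in place of TMM. H2-Eb1, the beta chain of the I-E molecule, differed between 1.39 ± 0.0533 CPM for WT and 1.69 ± 0.143 CPM for KO and did not pass (log2 fold change 0.29, adjusted p = 0.0609). The pseudogene H2-Ea-ps, at the position of the I-E alpha chain, had 0 counts in all 6 samples, which allows up to 3 counts per sample.

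Cd74, the invariant chain that guides class II molecules through the cell, was measured at 6.41, 7.42 and 7.24 CPM in WT and at 8.87, 7.75 and 7.42 CPM in KO. The lowest KO value only just exceeded the highest WT value, and the log2 fold change of 0.19 (SE 0.088, adjusted p = 0.11) did not pass the test. H2-DMa, part of the molecule that exchanges class II peptides, rose from 3.35 ± 0.285 to 4.10 ± 0.154 CPM (log2 fold change 0.29, SE 0.087, adjusted p = 0.0214). Without WT sample 1, WT sample 3, KO sample 2 or KO sample 3 its adjusted p was 0.0768, 0.0687, 0.0564 or 0.0738. Its partners H2-DMb1 and H2-DMb2 had log2 fold changes of 0.30 and -0.06 with adjusted p-values of 0.116 and 0.897, and 11.3% of the exon stretches of H2-DMb1 also occurred in H2-DMb2 or another gene. H2-Oa and H2-Ob encode the inhibitor of H2-DM. They had 5 to 20 and 11 to 43 counts per sample and log2 fold changes of -0.50 and 0.90, which did not pass, but without WT sample 1 H2-Ob stood at 1.51 with an adjusted p of 0.00495. Summed over the 10 class II chain and loading genes, expression came to 18.8 ± 1.004 CPM for WT and 23.2 ± 1.49 CPM for KO, a ratio of 1.23. The difference between class I and class II was not tested.

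Of the 11 genes annotated as pseudogenes, 6 were tested. H2-K2 (ENSMUSG00000067203.8) had 55, 40 and 58 counts across WT and 123, 129 and 94 in KO, a log2 fold change of 1.16 (SE 0.17, adjusted p = 0.000486). H2-Q5 (ENSMUSG00000055413.12), with 6, 4 and 11 counts across WT and 24, 14 and 24 in KO, was called higher on few reads (log2 fold change 1.53, SE 0.37, adjusted p = 0.00848). For both, the groups did not overlap, and 14.0% of the exon stretches of H2-Q5 also occurred in other genes, the most in H2-Q7. H2-T-ps (ENSMUSG00000073405.6) had 32, 38 and 28 counts across WT and 20, 4 and 12 in KO and was called lower (log2 fold change -1.47, SE 0.43, adjusted p = 0.0202). Without WT sample 2 its adjusted p was 0.0536 and without KO sample 3 it was 0.0699. The class II pseudogene H2-Pb (ENSMUSG00000092383.2) had 29, 19 and 31 counts across WT and 18, 12 and 10 in KO, just short of overlap, and was called lower (log2 fold change -0.99, SE 0.28, adjusted p = 0.0189). Its adjusted p was 0.0595, 0.0645, 0.0661 and 0.0801 without WT sample 1, WT sample 3, KO sample 2 and KO sample 3, and 0.0804 with DESeq2. H2-T10 and H2-M6-ps, with 24 to 49 and 10 to 17 counts, did not pass. H2-Ke6, named for its place in the complex, encodes a steroid dehydrogenase and had 96 to 105 counts in WT and 97 to 99 in KO, and 86.4% of its exon bases overlap another gene.

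Genes not tested were H2-Q1, H2-Q2, H2-Q3, H2-Bl, H2-T3, H2-M1, H2-M2, H2-M11, H2-M10.1, H2-M10.2, H2-M10.3, H2-M10.4, H2-M10.5, H2-M10.6, H2-M10.5-ps1, H2-Pa, H2-Ea-ps and H2-Eb2. They had 0 to 14 counts per sample, and 8 of them had 0 in every sample. The highest, 14 counts, was H2-Q2 in WT sample 1, where its other samples had 0 or 1. H2-M10.2 had 3 to 5 counts in every sample. Differences in these genes were not detectable at this depth.

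**Figure D4:**
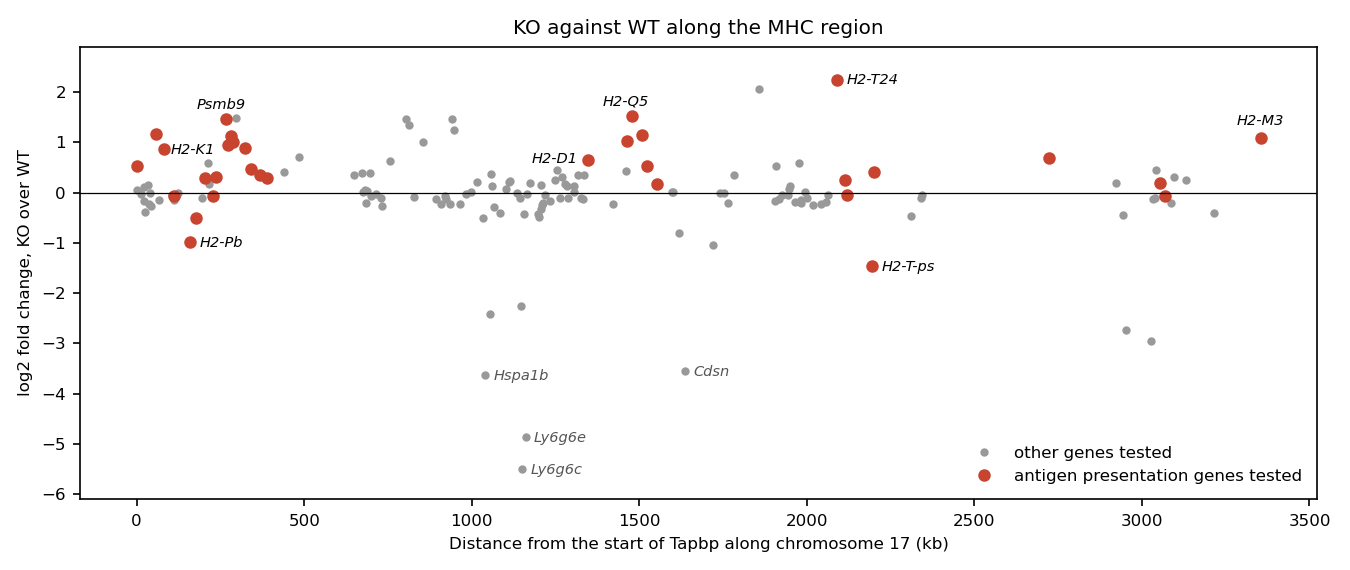
Log2 fold change of KO over WT for genes tested along the complex, against the distance in kb from the start of Tapbp on chromosome 17, with large red points for antigen presentation genes and small grey points for the 130 other genes tested. The red points of Psmb9, Tap1, Psmb8 and Tap2 (0.94 to 1.46) lie together near 300 kb, and the grey points of Ly6g6c and Ly6g6e lie at -5.51 and -4.86.

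The other genes of the same chromosome segment did not share one direction. Between the first and the last of the 50 genes on chromosome 17 lie 284 other annotated genes, of which 130 were tested. Of these, 10 were called higher and 10 lower, where 8.31% and 8.39% of all genes tested were. Their median log2 fold change was -0.05. The largest differences were those of Ly6g6c (-5.51), Ly6g6e (-4.86), the heat shock gene Hspa1b (-3.63) and Cdsn (-3.56), which encodes corneodesmosin of the outer skin. All 4 were called lower. Ly6g6c went from 204 ± 68.0 CPM for WT to 4.47 ± 1.94 CPM for KO, and Cdsn at 150 ± 40.3 and 12.7 ± 2.23 CPM. The complement genes C4b and C2, chosen after their values were seen, were called higher, with log2 fold changes of 1.34 (SE 0.069, adjusted p = 5.00e-07) and 1.26 (SE 0.097, adjusted p = 6.64e-06).

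Further genes of antigen presentation that do not fall under the naming rule gave calls in both directions, as did all genes together. Of 24 such genes tested, 2 were called higher and 2 lower, against 8.31% and 8.39% of all genes tested. The adjusted p was passed upward by 8 and downward by 6, against 21.9% and 23.1% of all genes. The median log2 fold change was 0.08. Cd86, a costimulatory ligand for T cells, had 456, 361 and 455 counts across WT and 770, 709 and 707 in KO (log2 fold change 0.76, SE 0.079, adjusted p = 4.85e-05). Mr1, a class I-like molecule that presents vitamin metabolites, rose from 18.8 ± 0.396 to 31.5 ± 2.29 CPM (log2 fold change 0.75, SE 0.060, adjusted p = 8.25e-06). Both were clearly separated between genotypes. Ifi30, a thiol reductase that prepares proteins for class II, fell from 57.9 ± 5.04 to 37.7 ± 1.82 CPM (log2 fold change -0.62, SE 0.064, adjusted p = 4.73e-05). Ide, a peptide-degrading enzyme best known for insulin, had 30099, 37162 and 37495 counts across WT and 7139, 9783 and 9964 in KO, a log2 fold change of -1.997 (SE 0.14, adjusted p = 4.53e-06).

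Among 12 transcription factors known to act on MHC promoters, 5 passed the adjusted p upward and 3 downward, and the median log2 fold change was -0.02. Interferon gamma response genes were mostly higher in KO. Of 23 genes listed, 21 were tested. By edgeR's quasi-likelihood test 12 were called higher and 0 lower, and 18 passed the adjusted p upward. Over all genes tested, 8.31% were called higher and 21.9% passed upward. The median log2 fold change was 0.84, and the 3 that did not pass were Jak1 (0.10), Socs1 (0.11) and Icam1 (0.11). The 4 largest belong to interferon-inducible GTPases that act in cell-autonomous defence. Iigp1 had 255, 202 and 361 counts across WT and 1387, 1323 and 1395 in KO, a log2 fold change of 2.32 (SE 0.11, adjusted p = 3.19e-07). Gbp3, Gbp5 and Gbp4 had log2 fold changes of 1.995, 1.81 and 1.68. Ifng itself had 1 to 4 counts per sample and was not tested. This list and that of the transcription factors share genes, among them Irf1.

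**Figure D5:**
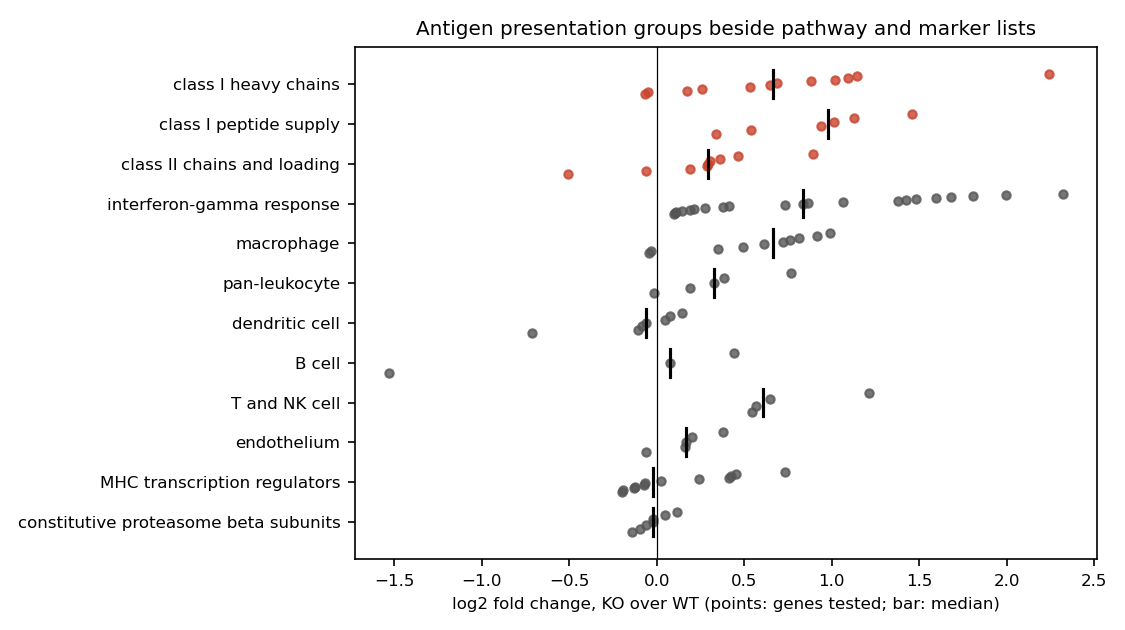
Log2 fold change of KO over WT for genes tested in 3 antigen presentation groups (red) and 9 pathway or marker lists (grey), with a black bar for the median of each. The medians were 0.67 for class I heavy chains, 0.98 for class I peptide supply and 0.29 for class II genes. Those of the lists were 0.84 for the interferon gamma response, 0.67 for macrophage, 0.61 for T and NK cell, 0.33 for pan-leukocyte and 0.17 for endothelial markers. They were 0.07 for B cell markers, -0.06 for dendritic cell markers, -0.02 for MHC transcription regulators and -0.02 for the constitutive proteasome.

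Markers of cell types that leg tissue can hold moved with genotype too, and their part in the class I and class II results was not tested. Of 10 macrophage markers, 6 were called higher and 8 passed upward, against 8.31% and 21.9% of all genes tested. Those called included Fcgr1 (log2 fold change 0.99), Mrc1 (0.91), C1qc (0.82) and Adgre1 (0.76). The summed level of the 10 markers was 273 to 291 CPM in WT and 426 to 465 CPM in KO, a ratio of 1.57, and Cx3cr1 and Itgam among them did not pass. Of 5 pan-leukocyte markers, Ptprc alone was called (log2 fold change 0.77), with a summed level of 74.5 to 82.6 CPM in WT and 97.2 to 110 CPM in KO. T and NK cell markers summed to 4.53 to 5.13 CPM in WT and 9.51 to 10.24 CPM in KO. Most of this sum was Cd3e alone, at 3.07 ± 0.163 CPM for WT and 7.11 ± 0.596 CPM for KO. Cd3g stood at 0.398 ± 0.0248 and 0.592 ± 0.158 CPM and did not pass. Of these 7 markers 4 were tested and Cd3e (1.21) and Cd4 (0.64) were called higher, while Cd3d had 3 to 10 and Cd8a 0 to 5 counts per sample.

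Dendritic cell markers summed to 15.2 to 16.0 CPM in WT and 16.0 to 17.2 CPM in KO, and their most abundant gene, Zbtb46, had a log2 fold change of 0.14 (adjusted p = 0.0809). Siglech was called lower on 13 to 31 counts. B cell markers summed to 2.25 to 2.43 CPM in WT and 2.21 to 2.48 CPM in KO. Siglech was named after its values were seen. The Langerhans cell marker Cd207 had 0 to 5 counts per sample and was not tested. Of 5 endothelial markers 0 were called by edgeR's quasi-likelihood test, where 8.31% of all genes tested were called higher and 8.39% lower. Of the 5, 4 passed the adjusted p upward, where 21.9% of all genes did so. The endothelial markers summed to 601 to 634 CPM in WT and 699.6 to 736 CPM in KO.

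Keratinocyte and muscle fiber markers differed by more than the immune markers in their summed levels. All 8 keratinocyte markers were called lower, against 8.39% of all genes tested. Their summed level was 15821 to 23757 CPM in WT and 670.2 to 775 CPM in KO. Krt77, Krt10, Krt1 and Lor had log2 fold changes of -10.24, -6.20, -5.47 and -4.26. Of 10 muscle fiber markers 9 were called higher, among them Myh8 (log2 fold change 1.59), against 8.31% of all genes tested. The 10 muscle fiber markers summed to 20951 to 23357 CPM in WT and 43831 to 53526 CPM in KO. Neither list overlapped between genotypes in its summed level, so the part of tissue composition in the differences of MHC genes and the part of the genotype cannot be told apart.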

How the data were processed

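RNA-seq counts of leg muscle from 3 WT and 3 KO fetuses' samples were used. Per the paper's methods and the submitters' processing notes, the authors trimmed reads with Trim Galore 0.6.6, mapped them to mm10 with HISAT2 2.2.1 and counted them per gene with featureCounts 2.0.1. They deposited raw counts for every gene, without normalization or filter. The annotation, the strand setting and the handling of reads with several matches are not given in the sources used here. Gene IDs were matched to GENCODE release 21 for mouse (M21), 55227 of 56262.

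Counts were tested in R 4.3.3 with edgeR 4.0.16 (filterByExpr, TMM, quasi-likelihood F-test on genotype) and adjusted by Benjamini-Hochberg over 22071 genes. A call needed an adjusted p below 0.05 and a difference of over 1.5-fold, and "rose", "fell" or "passed" refers to the adjusted p alone. The biological coefficient of variation was 7.68%. The filter keeps genes with enough counts in either genotype. Shared exon sequence was counted over stretches of 100 bases. Same-numbered WT and KO samples were not treated as paired, since the labels do not say that a number marks a litter.

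The genes and lists were chosen with earlier results of these data known. Genes that were called or had a mean of at least 5 CPM were given in full. The others were given by range with up to 4 named per role. From each other list, up to 4 were named by size of the log2 fold change among called genes with at least 1 CPM, or else by abundance. Further list genes, such as Cd3g and Jak1, were named after their values were seen. Alternatives were RLE or upper-quartile factors, library size, DESeq2 1.42.0, limma-voom 3.58.1, no filter, at least 10 counts in every sample, other fold thresholds, a replicate block, and leaving out each sample. The values of 2 genes are not reported here.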

Additional observations from a re-analysis of the deposited data

How the results depend on the processing

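Of the 15 called genes, 11 kept the call at the 1.5-fold threshold in every other fit that tested them (H2-Q5 and H2-T-ps were not tested with at least 10 counts in every sample), and H2-D1, Nlrc5, H2-T-ps and H2-Pb lost it under at least 1. Of the 24 genes past the adjusted p, 17 stayed past it in every such fit. The number called higher, 13, was 9 at a fold over 2, 22 with no fold threshold, 11 to 17 under other scalings, and 12 to 15 when leaving out a sample. The number called lower, 2, was 1 with DESeq2, 1 with at least 10 counts in every sample, 1 at a fold over 2, and 0 to 2 when leaving out a sample, with 0 without KO sample 3. Over all genes, 774 were higher at a fold over 2, and with no fold threshold 4838 were higher and 5098 lower. With library sizes in place of TMM, H2-Aa, H2-DMa, H2-T23 and Ciita did not pass. Signs changed only for genes that did not pass: with upper-quartile factors, which move the median of all genes to 0.064, H2-DMb2 was 0.0077, H2-M5 0.00043 and H2-T22 0.017. Leaving out a sample gave -0.385 to 0.158 for H2-DMb2, -0.170 to 0.0819 for H2-M5, -0.0523 to 0.293 for H2-Q10 and -0.104 to 0.0387 for H2-T22. The causes were not tested. Deviations of same-numbered samples from their group means correlated at -0.20, -0.13 and 0.05, which does not pair them. With a replicate block, 13 genes were called higher and 2 lower, and 1744 and 1777 over all genes, but H2-Aa (adjusted p = 0.0648) and Ciita (0.0792) no longer passed. Genes with few counts are limited by depth.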
